A study of Mus musculus with 6 samples.

Results

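Klf4 and 9 of its relatives in the Krüppel-like factor (KLF) family were read in wire-injured carotid arteries of wild-type (WT) mice and of mice that lack IRF4 in the whole body (IRF4 KO). The genes were Klf2, Klf3, Klf4, Klf5, Klf6, Klf7, Klf9, Klf10, Klf13 and Klf15, and every probe set annotated to one of them alone was used. That gave 34 probe sets of the 45101 on the array, 2 for Klf4 and 32 for the relatives. No probe set of these genes was chosen by its values, but the genes were chosen with earlier results of these data known. All 10 genes and all 34 probe sets were kept, with no filter on dim values.

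Each genotype had 3 Affymetrix arrays, and each array held the pooled RNA of 3 to 5 vessels taken 14 days after a wire had been passed through the artery. Both genotypes had the injury, and no uninjured artery was analysed here. The labels call the arrays biological replicates and give no strain, age or sex, nor the part of Irf4 that was deleted. Values are log2 intensities, so a difference of 1 is a 2-fold difference, and arrays are named by genotype and replicate number.

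KLF proteins bind GC-rich and CACCC-type DNA through zinc fingers at their C-terminal end, and differ in the rest of the protein, so that some activate and others repress. In injured arteries KLF4 is known as a repressor of the contractile genes of smooth muscle and a brake on its growth, in part through the cell cycle inhibitor gene Cdkn1a. KLF5 is known as a growth-promoting counterpart, and KLF2 as a flow-induced factor of quiescent endothelium.

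The promoters are shown for the member that differed most between genotypes (Klf4), for its closest relative in endothelium (Klf2) and for a contractile gene that KLF4 is known to repress (Acta2). The RefSeq table of GRCm38.p6 held starts for 8 of the 10 members, all but Klf5 and Klf10. Each run is the 250 bases before the annotated start, 5′ to 3′ on the gene's strand. Capitals mark GGGCGG (a GC box) in Klf4, GGGCGG and CACCC in Klf2, and CACCC and CArG boxes in Acta2, on either strand. The CArG box, the site of serum response factor, was searched with at most 1 G or C among its inner A and T bases.
Klf4, chr4:55532476-55532725, minus strand: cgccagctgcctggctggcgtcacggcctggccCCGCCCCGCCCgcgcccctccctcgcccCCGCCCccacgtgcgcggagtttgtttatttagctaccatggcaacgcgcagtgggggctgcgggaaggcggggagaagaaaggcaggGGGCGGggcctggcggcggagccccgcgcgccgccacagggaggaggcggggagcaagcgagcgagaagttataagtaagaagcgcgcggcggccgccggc
Klf2, chr8:72318812-72319061, plus strand: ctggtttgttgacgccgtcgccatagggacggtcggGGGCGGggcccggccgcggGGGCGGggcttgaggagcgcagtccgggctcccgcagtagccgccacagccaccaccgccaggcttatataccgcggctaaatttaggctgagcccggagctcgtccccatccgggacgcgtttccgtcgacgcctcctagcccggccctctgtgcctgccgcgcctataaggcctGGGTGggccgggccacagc
Acta2, chr19:34255374-34255623, minus strand: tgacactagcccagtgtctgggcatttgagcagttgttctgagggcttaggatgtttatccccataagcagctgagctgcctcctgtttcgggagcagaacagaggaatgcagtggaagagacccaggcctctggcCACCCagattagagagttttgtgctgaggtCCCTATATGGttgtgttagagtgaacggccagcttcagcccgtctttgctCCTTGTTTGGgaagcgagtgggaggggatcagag
The Klf4 run held 4 GC boxes, of which the first pair overlaps, and no CACCC site. Klf2 held 2 GC boxes and 1 CACCC, and Acta2 held 2 CArG boxes and 1 CACCC. The GC box occurred in 7 of the 8 member promoters (32.7% of 32851 promoters of the same length), and CACCC in 6 of 8 (52%). An interferon response site, searched as GAAA, any 2 bases and GAAA, and the composite site of IRF4 with ETS proteins, searched as GGAA, any 2 bases and GAAA, each occurred in 0 of 8 (2.98% and 2.3% of all promoters). Both strands were searched for every motif. CArG boxes also occurred in 0 of 8, against 8.59% of all promoters. These matches describe the letters of the windows only.

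Several facts of the whole series bear on the values below. WT 3 and IRF4 KO 1 stood apart, with poly-A spike-in controls, bacterial transcripts added before labelling, at 4.93 and 5.14 against 7.35 to 9.26 in the other arrays. The mean level of 12 cartilage markers, relative to the mean of the 6 arrays, was 2.19 and 2.40 in these arrays and -1.33 to -0.97 elsewhere, and that of 12 macrophage markers was 1.26 and 2.20 against -1.14 to -0.39. Fibroblast markers were at 0.69 and 1.06 against -0.51 to -0.33, and endothelial markers at 0.35 and 0.56 against -0.52 to -0.05. The smooth muscle markers ranged only from -0.28 to 0.21, the skeletal muscle markers from -0.27 to 0.16, the adipocyte markers from -0.31 to 0.29, and the T and B cell markers from -0.17 to 0.27. Of the 121 marker probe sets, 2 had an unadjusted p under 0.05 between genotypes, Acta1 and Cd22, a share near the 1.74% over all probe sets. Of the defining genes, the smooth muscle myosin Myh11 read 11.44 to 12.31 over the arrays. The cartilage collagen Col2a1 was bright, at 12.07 and 12.16, only on the pair that stood apart, with values of 3.75 to 5.15 elsewhere. In WT 1 the 3′ end of the Actb control exceeded its 5′ end by 3.12, against 1.43 to 2.12 in the other arrays. The same measure of the Gapdh control was 3.35 in WT 1 and 3.36 in WT 3, against 1.52 to 2.24 elsewhere, so 2 of the 3 WT arrays and no IRF4 KO array were high on at least 1 control. Irf4 itself was dim in both genotypes (3.64 ± 0.26 and 3.57 ± 0.26, SD, n = 3), so it did not check the labels.

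Klf4 was the member with the largest difference. Its brighter probe set (1417394_at) read 8.11, 7.92 and 7.995 in WT 1, 2 and 3, and 6.95, 6.75 and 6.91 in IRF4 KO 1, 2 and 3. All IRF4 KO arrays lay below all WT arrays, and the gap between the genotypes was wider than the range within either. The means were 8.01 ± 0.10 and 6.87 ± 0.11 (SD, n = 3), a log2 difference of -1.14 (SE 0.17, 95% interval -1.52 to -0.76), or 2.21-fold lower in IRF4 KO. In bulk arteries, fewer cells that express Klf4 and less Klf4 RNA per cell cannot be told apart.

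The second Klf4 probe set (1417395_at) read 7.80, 7.91 and 7.94 in WT and 6.77, 6.72 and 6.86 in IRF4 KO, again without overlap. Its means were 7.89 ± 0.07 and 6.78 ± 0.07, a difference of -1.10 (SE 0.16), or 2.15-fold lower. The array annotation gives both probe sets the same source sequence, so they are repeat readings of 1 transcript and not independent evidence. Their genotype differences differed by -0.04 (exact permutation test over the 6 arrays, two-sided, p = 0.8).

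Neither Klf4 probe set passed the test over the whole array. With limma, 0 of 45037 probe sets had a Benjamini-Hochberg adjusted p under 0.05 (0%), and 0 of the 34 members did. The adjusted p was 0.344 for both Klf4 probe sets, which was also the smallest on the array, and their unadjusted p values of 1.21e-04 and 1.23e-04 ranked 9 and 11. An unadjusted p under 0.05 was found for 782 probe sets (1.74%), 505 of them lower (1.12%) and 277 higher (0.615%). Among the members it was found for the 2 Klf4 probe sets, both lower, and for 0 of the 32 probe sets of the relatives. With estimated array weights both Klf4 probe sets passed (adjusted p = 0.00353 for each), but that estimate did not converge and gave IRF4 KO 2 a weight of 12.0 against 0.341 to 3.16 for the others. Across the other alternatives the adjusted p of the brighter probe set ranged from 0.164, with a block for the poly-A controls, to 1. The mean of both Klf4 probe sets, in a table of 1 value per gene, had an adjusted p of 0.0919.

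Klf4 did not follow the arrays that stood apart. It was lower by 1.05 (brighter probe set) and 1.17 in IRF4 KO 1 than in WT 3, and by 1.19 and 1.07 in IRF4 KO 2 and 3 than in WT 1 and 2. The mean of WT 3 and IRF4 KO 1 exceeded that of the other 4 arrays by 0.05 and 0.03. The difference was thus about as large within each set of arrays as over all 6. WT 1 and WT 3 also had a high 3′ excess on at least 1 control, and its part in the Klf4 difference was not tested. The raw image files were not analysed here, so these values rest on the deposited matrix alone.

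**Figure D1:**
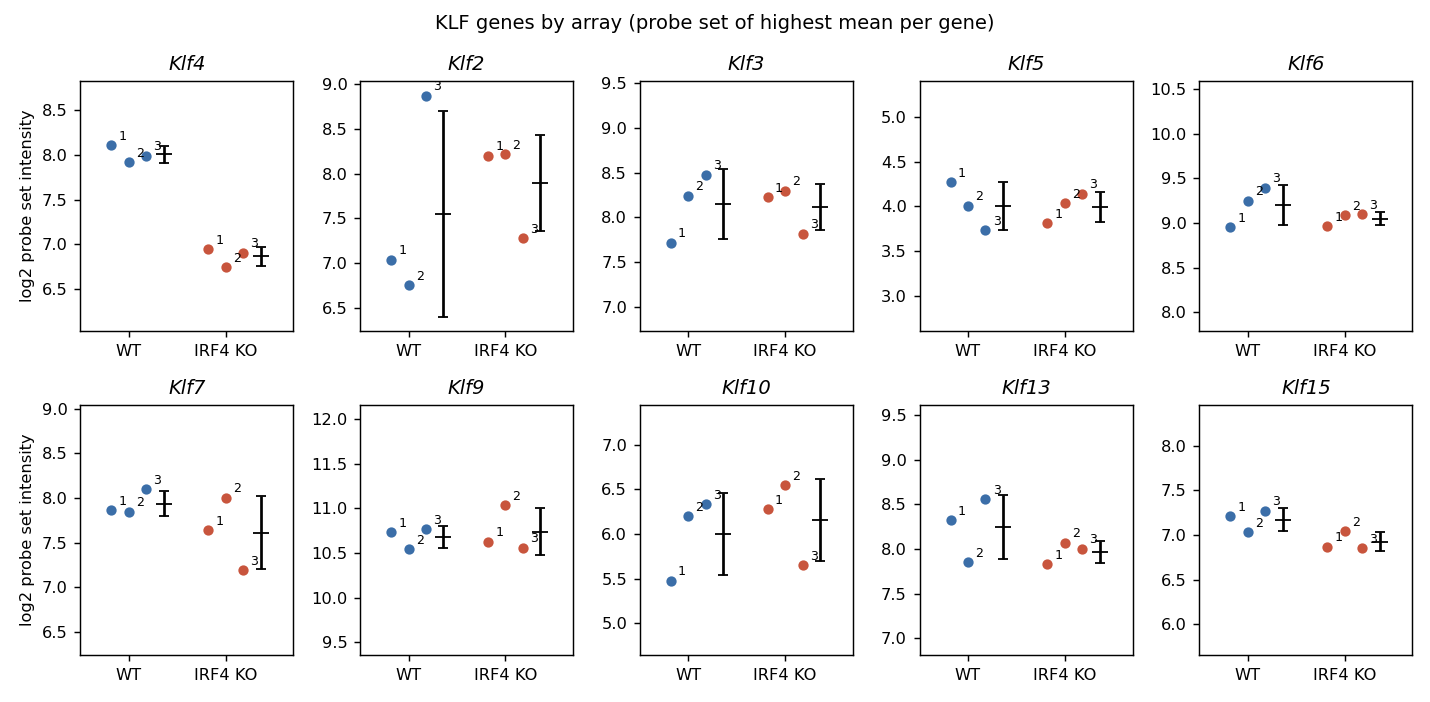
Log2 intensity of the probe set of highest mean for each of the 10 KLF genes, with 1 point per array labelled by replicate number, and bars at the mean ± SD of 3 arrays. Each panel spans the same 2.8 log2 units. Klf4 is the only gene here whose genotypes do not overlap, at 7.92 to 8.11 in WT and 6.75 to 6.95 in IRF4 KO.

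The relatives were read to see whether other members differed as Klf4 did. Of their 32 probe sets, 15 were lower and 17 higher in IRF4 KO, against 47.8% lower and 52.2% higher over all probe sets, and 3 of them turned under another scaling. Their median difference was 0.02, with a range from -0.32 to 0.43, where the median over all probe sets was 0.01. The genotypes did not overlap for 1 of the 32, a Klf6 probe set that was lower, against 3.24% lower without overlap over all probe sets. The smallest unadjusted p among the relatives was 0.176, for Klf3 1458487_at, which differed by 0.33.

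Klf2 had 1 probe set and the widest spread of the genes at their brightest probe set. It read 7.04, 6.75 and 8.87 in WT 1, 2 and 3, and 8.20, 8.21 and 7.28 in IRF4 KO 1, 2 and 3. The highest and the lowest value were both WT arrays. The means were 7.55 ± 1.15 and 7.90 ± 0.54, a difference of 0.34 (SE 0.54, limma adjusted p = 1). IRF4 KO 1 was 0.67 below WT 3, whereas IRF4 KO 2 and 3 averaged 0.85 above WT 1 and 2, so the sign turned between the sets of arrays. Over WT 3 and IRF4 KO 1, which also had the higher endothelial markers, Klf2 averaged 1.22 above the other arrays, the largest such gap among the members; the part of those markers in it was not tested.

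Klf5, the growth-promoting relative, lay below the median of all probe sets on 2 of its 3 probe sets and at about the median on the other. Its brightest one (1451739_at) read 4.27, 4.01 and 3.73 in WT and 3.81, 4.04 and 4.14 in IRF4 KO beside a median of 3.998 over all probe sets. The genotypes overlapped throughout, and the difference was -0.01 (SE 0.20). The other probe sets differed by 0.21 and 0.18 from WT means of 3.26 and 2.22.

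Klf6 and Klf10 are genes of the early response to injury and TGF-beta. The brightest of the 5 Klf6 probe sets (1433508_at) read 8.95, 9.25 and 9.39 in WT and 8.96, 9.08 and 9.10 in IRF4 KO. WT 1 was the lowest of the 6, and the difference was -0.15 (SE 0.18). Probe set 1447448_s_at of Klf6 read 9.10, 9.03 and 9.21 in WT and 8.89, 8.89 and 8.92 in IRF4 KO. These values did not overlap, but the difference was only -0.21 (SE 0.16, limma adjusted p = 1), and its pooled SD of 0.069 was among the lowest 1.403% of probe sets.

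The remaining Klf6 probe sets differed by 0.09, -0.16 and -0.06. The one at -0.16 (1418280_at) ranged from 5.44 in IRF4 KO 2 to 7.58 in WT 1, so probe sets of 1 gene did not move together across arrays. Klf10 read 5.48, 6.20 and 6.33 in WT and 6.28, 6.54 and 5.65 in IRF4 KO, a difference of 0.16 (SE 0.31). WT 1 and IRF4 KO 3 were its lowest arrays. Klf6 is the only member on the chromosome of Irf4, per the RefSeq table.

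Klf9 and Klf15 are genes induced by glucocorticoids, and KLF15 is also known as a regulator of amino acid and lipid metabolism and as an inhibitor of smooth muscle growth. Klf9 was higher on all 7 of its probe sets, by 0.04 to 0.35, yet the smallest unadjusted p was 0.262. In the annotation 3 of the 7 share 1 source sequence, and only 5 had a mean above the median of all probe sets. Of its 7 probe sets, 6 turned when 1 array was left out. Its brightest probe set (1456341_a_at) read 10.73, 10.54 and 10.77 in WT and 10.62, 11.04 and 10.56 in IRF4 KO. IRF4 KO 2 was the high array, and the other IRF4 KO arrays lay inside the WT range. The difference was 0.06 (SE 0.19).

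Klf15 read 7.21, 7.03 and 7.27 in WT and 6.87, 7.05 and 6.85 in IRF4 KO. Its IRF4 KO 2 value lay just above WT 2, and the other IRF4 KO arrays lay below all WT arrays. The means were 7.17 ± 0.13 and 6.92 ± 0.11, a difference of -0.25 (SE 0.17, 95% interval -0.64 to 0.14). It was -0.40 in the pair that stood apart and -0.17 over the other 4 arrays, lower in both, but it did not pass the test (limma adjusted p = 1).

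Klf7, best known from neurons and fat cell precursors, was lower on all 4 of its probe sets, by 0.07 to 0.32, although 1419356_at turned to 0.0055 after quantile normalization. These 4 share 1 source sequence in the annotation. The brightest (1449439_at) read 7.86, 7.85 and 8.10 in WT and 7.64, 8.003 and 7.19 in IRF4 KO. IRF4 KO 3 was the low array on each of the 4, and IRF4 KO 2 lay within or above the WT range on all of them. The difference of -0.32 had a 95% interval of -0.86 to 0.21.

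Klf3, which encodes a repressor that acts through CtBP, had 7 probe sets with differences from -0.09 to 0.43, 3 lower and 4 higher, of which 1454666_at and 1431630_a_at turned under another scaling. The brightest (1454666_at) read 7.71, 8.24 and 8.48 in WT and 8.22, 8.30 and 7.82 in IRF4 KO, a difference of -0.03 (SE 0.25). WT 1 and IRF4 KO 3 were again low. The largest Klf3 difference, 0.43 (1421604_a_at), came with a WT 1 value of 3.68 against 4.77 to 5.28 in the other arrays.

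Klf13, a regulator of chemokine genes in T cells, had 3 probe sets. The brightest (1436316_at) read 8.32, 7.85 and 8.56 in WT and 7.83, 8.07 and 8.002 in IRF4 KO, a difference of -0.28 (SE 0.22, 95% interval -0.78 to 0.23). WT 2 lay at the low end, inside the IRF4 KO range, so the genotypes overlapped. The second probe set differed by 0.06 in the other direction, and the dimmest (1456030_at) by -0.07. For Klf4 and all its relatives the part of the RNA quality signs of WT 1 and WT 3 in the values was not tested.

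**Figure D2:**
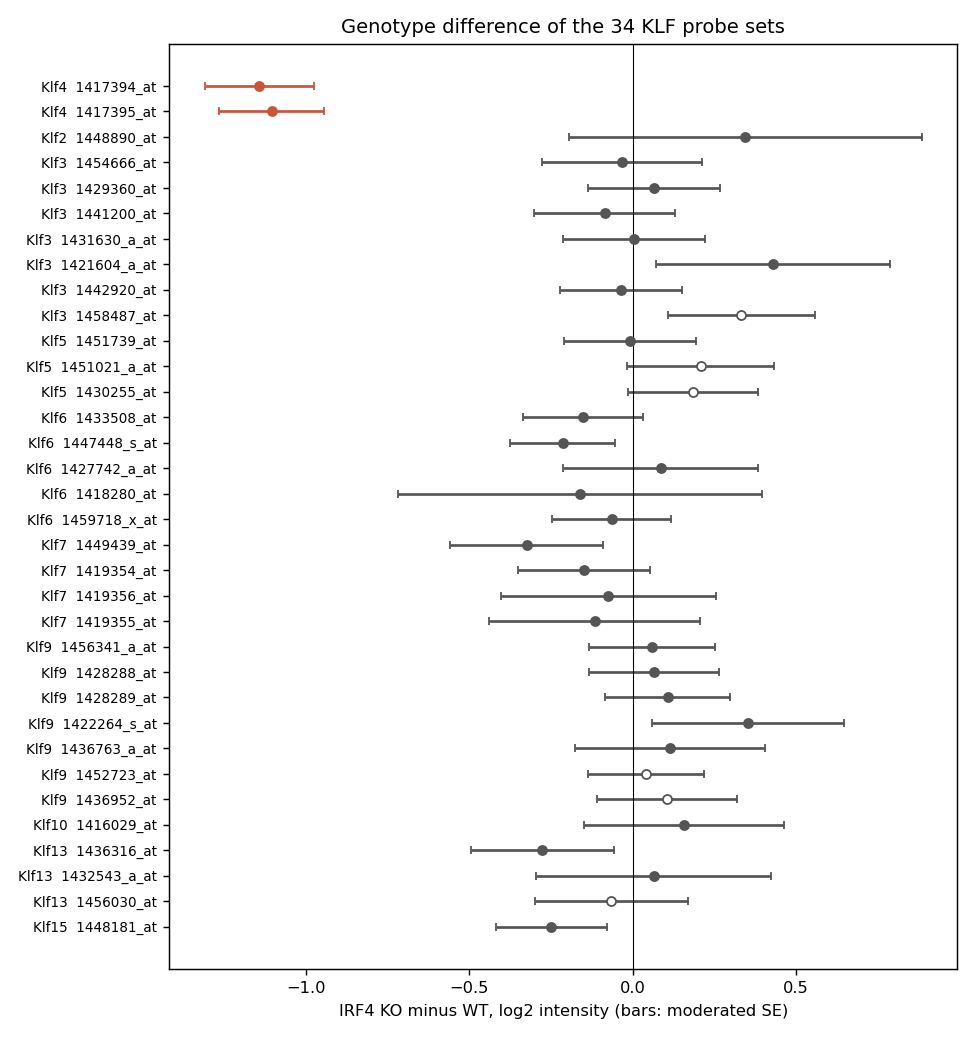
Difference of IRF4 KO minus WT in log2 intensity for the 34 KLF probe sets, with bars at the moderated SE; red marks Klf4, and open points are probe sets with a mean at or under the median of all probe sets, 3.998. The 2 Klf4 probe sets lie at -1.14 and -1.10, and all others between -0.32 and 0.43.

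Whether Klf4 differed from its relatives was tested on the difference itself. The adjustment was over 11 comparisons, including that between the Klf4 probe sets given above. Klf4 minus the mean of the 9 relatives, each at its brightest probe set, was 0.60, 0.40 and 0.05 in WT 1, 2 and 3, and -0.65, -1.07 and -0.49 in IRF4 KO 1, 2 and 3. The genotypes did not overlap, and the difference of the changes was -1.09 (exact permutation test, two-sided, p = 0.1, adjusted 0.122). That p is the smallest that 3 arrays against 3 allow, so this test could not reach 0.05. Taken 1 at a time, the difference was -1.20 against Klf9, -1.30 against Klf10 and -1.13 against Klf5. It was smallest against Klf7 (-0.82), Klf13 (-0.86) and Klf15 (-0.89). Against Klf2 it was -1.49 with an exact p of 0.2 (adjusted 0.220), because WT 3 was high in Klf2.

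The Klf4 arrays of a genotype varied little. The pooled SD within a genotype was 0.102 and 0.073 on its probe sets, against a median of 0.267 for the relatives and 0.274 for all probe sets. Among the relatives, Klf6 1447448_s_at varied less (0.069), and Klf15 was next (0.116). A pooled SD of 0.102 or less was found for 2156 probe sets (4.79%), of which 18 differed by at least 1 and only 8 by 0.5 to under 1. Of the 133 probe sets that differed by at least 1, the median pooled SD was 0.728. A difference of at least 1 with an unadjusted p under 0.001 was found in 39 probe sets, 23 higher and 16 lower, with sizes from 1.02 to 1.55 (median 1.11) and a median pooled SD of 0.113. These stand for 26 named genes, of which 11 have more than 1 probe set, and 8 of these 11, Klf4 included, had all of them among the 39. Of the 39, 8 had a mean below the median of all probe sets. Of the 26 genes, 17 are on the KLF and pathway lists read here, among them Acta2, Tagln, Smtn, Ccnd1, Pcna, Cdkn1a, Vcam1, Tnf, Nos2 and Arg1. The 39 probe sets were chosen on these values, and the lists with earlier results of these data known. The set and its overlap with the lists are thus descriptions and no test. So many differences of nearly 1 size with so small a spread call for a comparison of the deposited values with the raw image files before any of these genes, Klf4 included, is relied on, and that comparison was not made here.

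**Figure D3:**
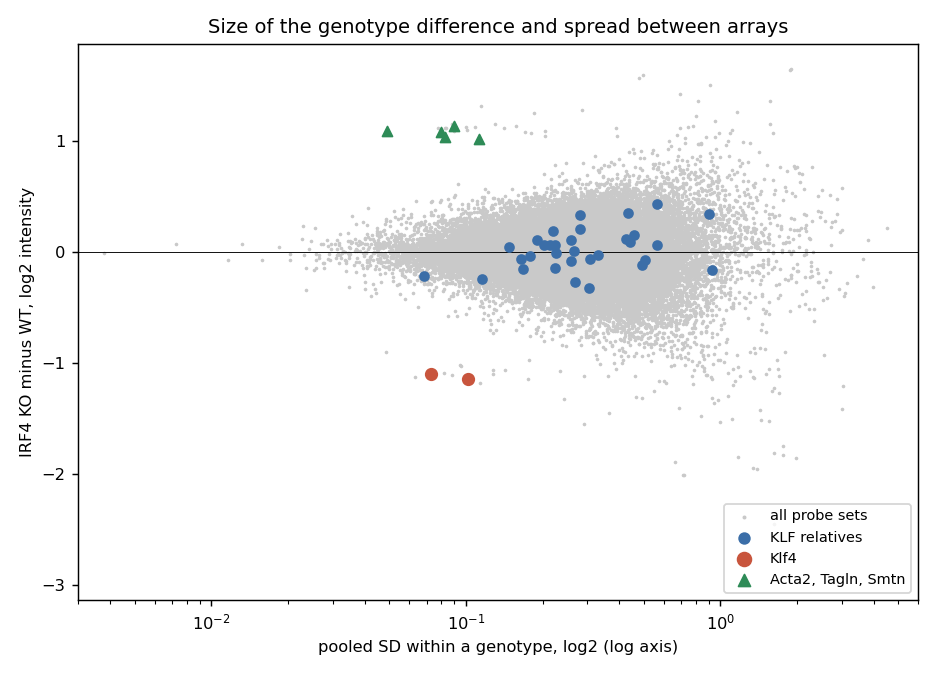
Difference of IRF4 KO minus WT (log2, vertical axis) against the pooled SD within a genotype (log axis) for all 45037 probe sets in grey. The 2 Klf4 probe sets (red) have SDs of 0.102 and 0.073 at differences near -1.1; the relatives (blue) lie within the main body, and the probe sets of Acta2, Tagln and Smtn (triangles) lie at 1.02 to 1.14.

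The genes whose pattern was most like that of Klf4 were sought among 7630 genes, by Pearson's r over the 6 arrays with its brighter probe set. They were Pparg (r = 0.994), Mrc1 (0.988), Chil3 (0.986), Rab4a (0.985) and Tgfb1 (0.984). Pparg, the nuclear receptor of fat cells and of alternatively activated macrophages, read 4.70, 4.55 and 4.48 in WT and 3.51, 3.45 and 3.50 in IRF4 KO. The others differed by -1.03 (Mrc1), -1.18 (Chil3), -1.10 (Rab4a) and -1.13 (Tgfb1). With 6 arrays of 2 genotypes, such r values mostly state that the gene was lower in every IRF4 KO array by a like amount.

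The known target and partner genes of KLF4 were read from the same fit, with 0 of their probe sets past the adjusted threshold, as over the whole array. All lists were chosen with earlier results of these data known, so their shares beside those of all probe sets are descriptions and no test. Contractile genes come first, since KLF4 represses them. At an unadjusted p under 0.05, 7 of 46 probe sets of the 20 contractile genes were higher (0.615% over all probe sets) and 0 were lower. They were the 3 of Acta2 and 1 each of Tagln, Smtn, Itga8 and Vcl, the last named after its values were seen. Acta2, smooth muscle actin, read 12.80, 12.84 and 12.62 in WT and 13.84, 13.92 and 13.90 in IRF4 KO. These values did not overlap and differed by 1.14 (SE 0.16, limma adjusted p = 0.344). Each IRF4 KO value of Acta2 was also the highest value of its array, and whether the top of the scale limited it was not tested. Tagln, an actin-binding protein, differed by 1.08 and Smtn, smoothelin, by 1.09.

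The contractile genes did not all go 1 way. At their brightest probe sets 8 of the 20 were higher and 12 lower, with a median of -0.04 (0.01 over all probe sets). The brightest probe set of Itga8, an integrin chain of smooth muscle, differed by 0.07, although a dimmer one differed by 0.76. Myh11, chosen here with its values known, had 11.44, 12.22 and 11.84 in WT and 11.65, 12.31 and 12.13 in IRF4 KO, with overlap. So did Cnn1 (10.80 ± 0.33 and 10.76 ± 0.36), whose product is the calponin of contractile cells and which was likewise chosen with its values known.

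Among 19 measured regulators of the contractile genes, 1 of 47 probe sets had an unadjusted p under 0.05, a share near the 1.74% over all probe sets. It was that of the cytokine gene Il1b (4.81 ± 0.14 and 5.86 ± 0.26). Srf, serum response factor, differed by 0.30 on 1 probe set without overlap (SE 0.18), Sp1 by -0.37 on the dimmest of its probe sets, and Elk4 by 0.35 on 1 probe set and -0.21 on its brightest. The median of the 19 genes was 0.06.

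KLF4 restrains growth through Cdkn1a and the p53 pathway, and 7 of the 16 probe sets of this list had an unadjusted p under 0.05 (1.74% over all probe sets). Cdkn1a, the gene of the inhibitor p21, read 8.94, 9.08 and 9.16 in WT and 7.67, 7.97 and 8.11 in IRF4 KO, with no overlap. Its other probe set differed by -1.02, and Myc by -0.55. Ccnd1, cyclin D1, was higher on all 3 probe sets (1.15, 1.11 and 1.13), and Pcna, the replication clamp, by 1.09. Of the 9 measured genes, 4 were higher and 5 lower, with a median of -0.03.

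KLF4 is also known in macrophages, where it favours the alternative and restrains the inflammatory state. Of 15 probe sets of 11 genes, 4 were higher (0.615% over all probe sets) and 5 lower (1.12%) at an unadjusted p under 0.05. The same 9 of the 15 were those without overlap (5.99% over all probe sets). Higher were Tnf (1.31), and, named after their values were seen, Nos2 (1.15) and Ccl5 (1.08) together with 1 of the probe sets of Il4ra (0.61), an interleukin receptor chain, whose brightest probe set differed by only 0.03. Lower were Chil3 (-1.18), Arg1 (-1.11), Pparg (-1.09) and, named after their values were seen, Mrc1 (-1.03) and Retnla (-1.07). Arg1 read 3.23, 3.33 and 3.37 in WT and 2.30, 2.21 and 2.10 in IRF4 KO, all below the median of all probe sets. The IRF4 KO means of Chil3 (2.59), Retnla (2.96), Mrc1 (3.19) and Pparg (3.49) also lay below that median. Their WT means were 3.77, 4.03, 4.22 and 4.58. Among the higher genes, Tnf had a WT mean of 3.85, below that median, and 5.17 in IRF4 KO. Mrc1, the mannose receptor of macrophages, read 4.12 in WT 3 and 3.16 in IRF4 KO 1, the arrays where the macrophage markers were highest. The macrophage markers had 0 of 19 probe sets with an unadjusted p under 0.05 (1.74% over all probe sets). Their mean level ranged from -1.14 to 2.20 over the arrays, and their part in these values was not tested.

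In the list of endothelial targets of KLF2 and KLF4, the 3 probe sets of Vcam1, an adhesion receptor for leukocytes, were higher (1.12, 1.12 and 1.10; 0.615% of all probe sets were higher at an unadjusted p under 0.05), and 0 of the other 18 probe sets had an unadjusted p under 0.05. Slc9a3r2, a scaffold protein gene, differed by -0.44 and S1pr1, a sphingosine phosphate receptor gene, by 0.23. Of the 11 measured genes 8 were higher and 3 lower, with a median of 0.11. Among 15 probe sets of 10 KLF15 metabolic targets, 0 had an unadjusted p under 0.05 (1.74% over all probe sets). Their median over the genes was -0.12, and Prodh, of proline breakdown, differed by -0.36.

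Immediate early genes were read because several KLF genes respond to handling and stress as these do. Of 21 probe sets, 1 was higher (Egr1, 0.89) and 1 lower (Myc, -0.55) at an unadjusted p under 0.05, against 0.615% and 1.12% over all probe sets. Atf3 differed by -0.44 without overlap, and Fos by 0.81. For Egr1 the difference was -0.22 on the pair that stood apart but 1.45 over the remaining 4 arrays, unlike Klf4, which was lower by about as much in both. The rest of the KLF and SP family, 25 probe sets of 13 genes, had 0 with an unadjusted p under 0.05 (1.74% over all probe sets). Of its genes, 10 were higher and 3 lower, with a median of 0.11. Within it Sp1 (-0.37), Klf12 (0.25), Klf17 (0.21) and Sp5 (0.20) had the smallest p values, from 0.136 to 0.274.

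**Figure D4:**
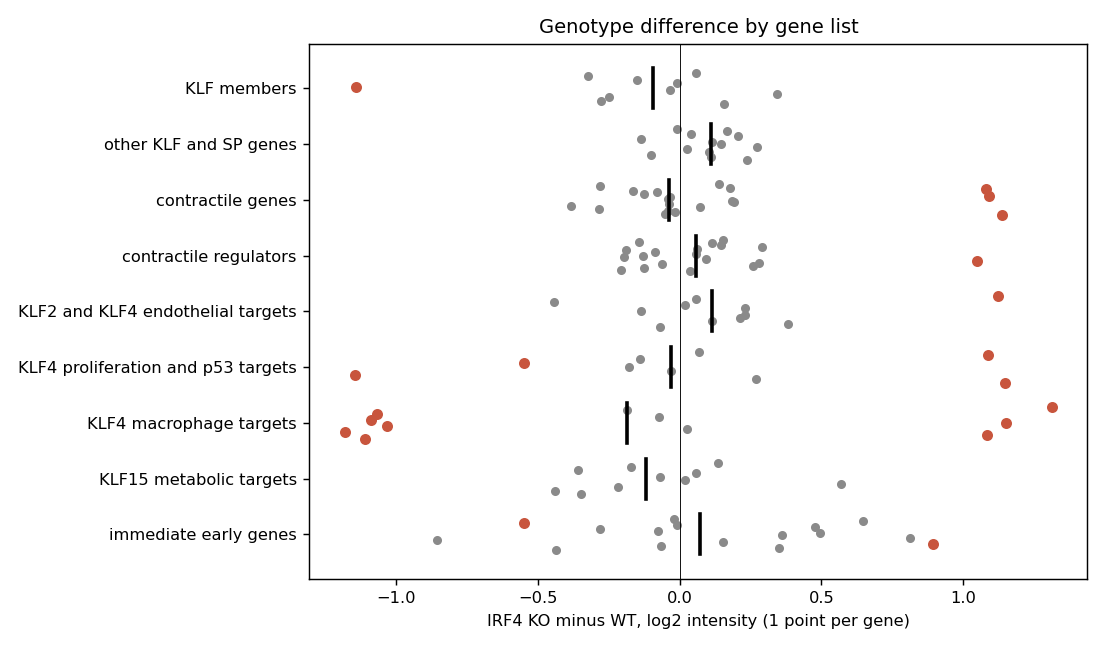
Difference of IRF4 KO minus WT (log2) for each measured gene at its brightest probe set, by list; red points have an unadjusted limma p under 0.05, grey points do not, and black bars are list medians. Apart from Egr1 (0.89), Myc (-0.55) and Tnf (1.31), the red points lie near 1.1 or -1.1, and the lists hold few points between these and the grey ones around 0.

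**Figure D5:**
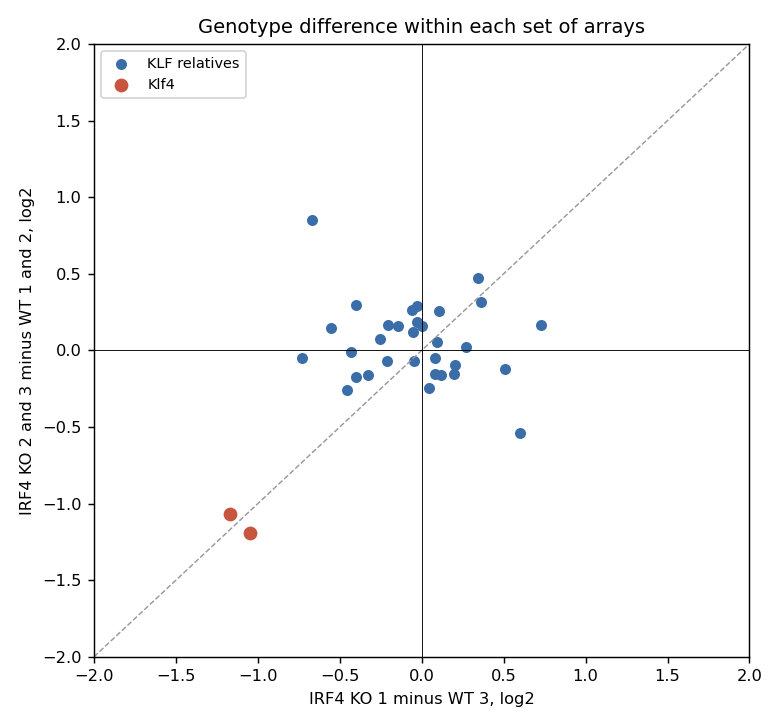
Difference of IRF4 KO 1 minus WT 3 (horizontal axis, log2) against that of the mean of IRF4 KO 2 and 3 minus the mean of WT 1 and 2 (vertical axis, log2) for the 34 KLF probe sets; the dashed line marks equal values. The Klf4 probe sets (red) lie at -1.05 and -1.19, and at -1.17 and -1.07, while the relatives scatter around 0, with Klf2 at -0.67 and 0.85.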

How the data were processed

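RNA of pooled injured carotid arteries (400 ng per array) was read on 6 Affymetrix mouse arrays. The authors made the deposited log2 intensities, 1 per probe set and array, with RMA in Affymetrix Expression Console, per the submitters' processing notes, which name no version. RMA makes the arrays' distributions alike, so a shift common to all genes would not show. Symbols came from GEO's platform annotation, and all 34 KLF symbols matched RefSeq (GRCm38.p6).

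Values were used as deposited, with 64 control probe sets left out. IRF4 KO was compared with WT over 45037 probe sets in R 4.3.3 by limma 3.58.1 (a linear model with moderated variances, two-sided, Benjamini-Hochberg adjustment, threshold 0.05), and single differences with an exact permutation test over 6 arrays. Unadjusted p values are limma's. The code was tested on simulated data. What the labels call biological replicates are pools of vessels, and p-values measure the spread between these pools. Replicate numbers were checked as pairs and do not pair the arrays, so no block was used in the main comparison. Some arrays of unlike number deviated alike, as given below, and a block of such pairs was not run.

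All KLF probe sets were described. From each list at most 4 genes with the smallest unadjusted p were named; others are said to be named after their values were seen. A gene's brightest probe set is that of the highest mean over 6 arrays. Genes like Klf4 needed an SD over the arrays of at least 0.3 and excluded predicted-gene symbols. Lists held contractile genes and their regulators, KLF2, KLF4 and KLF15 targets, immediate early genes, other KLF and SP genes, and markers of endothelium, macrophages, smooth muscle, fibroblasts, cartilage, skeletal muscle, adipocytes, and T and B cells. The KLF genes and all lists were chosen with earlier results of these data known. Alternatives changed the value per gene, the filter on dim probe sets, the normalization, the variance model, array weights, blocks and the arrays used.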

Additional observations from a re-analysis of the deposited data

How the results depend on the processing

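The number of arrays, 3 a genotype, limits the precision. No probe set passed the adjusted threshold with the deposited values, with 1 value per gene (either rule), without dim probe sets, after array median subtraction or quantile normalization, with a robust intensity trend, or with the replicate block or a poly-A control block. Array weights gave 69 calls over all probe sets, 2 among the KLF probe sets and 24 on the pathway lists, a Klf4 difference of -1.19 and a difference from the relatives of -1.41. Leaving out the 2 arrays of low poly-A controls, WT 3 and IRF4 KO 1, gave 6 calls over all probe sets. Leaving out 1 array at a time gave 0 to 4 calls over all probe sets, 4 without IRF4 KO 1, and 0 among the KLF probe sets and the pathway lists, with Klf4 at -1.19 to -1.08 and its difference from the relatives at -1.24 to -0.92. Numbers do not pair the arrays, since same-numbered arrays deviated from their genotype means with r of -0.51, 0.31 and -0.59. WT 3 and IRF4 KO 1 deviated with r of 0.65, and WT 1 and IRF4 KO 3 with 0.57. The labels state no such pairs, and a block of them was not run. With the replicate block Klf4 stayed at -1.14 (limma adjusted p = 1), and that block changed no call. The cause of these shifts was not tested.

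Of the 34 KLF probe sets, 10 kept their direction in every alternative run, both of Klf4 included, and 24 turned in at least 1. The mean of all probe sets gave 0.10 for Klf3 and 0.13 for Klf5. Array median subtraction gave -0.030 for Klf3 1431630_a_at, and quantile normalization gave 0.024 for Klf3 1454666_at and 0.0055 for Klf7 1419356_at. Array weights gave 0.055, -0.010 and -0.0023 for Klf3 1454666_at, 1431630_a_at and 1421604_a_at, 0.036 for Klf5 1451739_at, -0.53 and 0.10 for Klf6 1427742_a_at and 1459718_x_at, 0.088, 0.14 and 0.16 for Klf7 1449439_at, 1419356_at and 1419355_at, and 0.077 for Klf13 1436316_at. Without WT 3 and IRF4 KO 1 the values were 0.077, 0.15 and -0.093 for Klf3 1454666_at, 1441200_at and 1431630_a_at, and -0.12 for Klf6 1427742_a_at. The remaining turns came from leaving out 1 array at a time. For Klf2 the range was -0.057 to 1.004 (1448890_at). For Klf3 the range was -0.25 to 0.13 (1454666_at), -0.064 to 0.19 (1429360_at), -0.25 to 0.035 (1441200_at), -0.15 to 0.19 (1431630_a_at), -0.0020 to 0.66 (1421604_a_at), -0.16 to 0.030 (1442920_at). For Klf5 the range was -0.14 to 0.13 (1451739_at). For Klf9 the range was -0.089 to 0.15 (1456341_a_at), -0.042 to 0.20 (1428288_at), -0.046 to 0.18 (1428289_at), -0.054 to 0.36 (1436763_a_at), -0.055 to 0.15 (1452723_at), -0.016 to 0.27 (1436952_at). For Klf10 the range was -0.11 to 0.41 (1416029_at). For Klf6 the range was -0.16 to 0.29 (1427742_a_at), -0.52 to 0.52 (1418280_at), -0.15 to 0.029 (1459718_x_at). For Klf7 the range was -0.33 to 0.27 (1419356_at), -0.40 to 0.17 (1419355_at). For Klf13 the range was -0.15 to 0.44 (1432543_a_at), -0.24 to 0.14 (1456030_at).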
